A study of Mus musculus with 7 samples.

Results

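The libraries compared were those labelled 2, 4 and 6 h, which are 3 of the 7 in a light-induction time course. Messenger RNA was sequenced from mouse embryonic stem cells of the E14 line kept in 2i medium, which holds such cells in the naive pluripotent state. All 7 libraries, the one labelled 0 h included, came from cells carrying the Brn2-RFP GAVPO induction cassette: GAVPO, a transcription factor switched on by light, drives Brn2 (the neural POU-domain factor also called Pou3f2) with a red fluorescent protein; the light was an LED at 300 µW. Each time is the label of 1 library, and 4 and 6 h are different times and not replicates of each other. No test or p-value is therefore given, and every difference below is one between single libraries. In such bulk RNA, fewer cells expressing a gene and less of its RNA per cell cannot be told apart.

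The question was which genes stood on the same side of their 2 h level at both 4 and 6 h, a second early wave after the first hours of light. Of 20294 genes in the deposited table, 2762 had a value of at least 5 in 1 or more of the 3 libraries. Among these, 821 genes (29.7%) lay above 2 h at both later times, 822 (29.8%) lay below it at both, and 1119 lay on opposite sides. The table's values behave as reads per kilobase of a gene's genomic span, scaled to library size. A gene with a long span therefore needs more reads to pass the floor than a short one. A gene under 5 at 2 h could pass only through 4 or 6 h, so it could not be counted below 2 h at both. One under 5 at both 4 and 6 h could pass only through 2 h, so it could not be counted above at both. This limit holds for every count of sides below, in the lists and over all genes. A log2 ratio below is that of the value plus 1 to the 2 h value plus 1. A gene is called higher or lower when both ratios pass 2-fold, and a wider set passes 1.5-fold in both. Near the floor of 5, Clptm1 (4.29, 3.57 and 5.004 at 2, 4 and 6 h) was just inside, and Nans was just outside, with 3.39, 3.98 and 4.997 at the same 3 times.

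In the first hours of an induction, messages with short half-lives and directly driven promoters tend to move before secondary targets do. Immediate early genes and several Id and Klf genes have such short-lived messages. Nrf2 is a transcription factor that Keap1 marks for degradation. When oxidants or electrophiles disable Keap1, Nrf2 pairs with a small Maf protein on antioxidant response elements and drives enzymes of glutathione, thioredoxin, quinone and heme metabolism.

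Against the 2 h library, the wave was small and led on the higher side by antioxidant genes. Of the 2762 genes, 12 were called higher (0.434%) and 1 was called lower, Rcor2 (0.0362%). At 1.5-fold the numbers were 54 higher (1.96%) and 20 lower (0.724%). Some of these genes passed the floor only where they were high. Nqo1, Cited4 and Neurod1, at 4.51, 2.51 and 1.77 at 2 h, passed it only at later times. Bmp4 and Spry1, of the wider lower set, passed it only at 2 h, at 5.36 and 5.51. The numbers higher and lower are therefore not set against each other. On the higher side 5 of the 12 belong to a list of 23 Nrf2 and antioxidant genes: Hmox1, Srxn1, Nqo1, Gclm and Fth1. The other 7 were Neurod1, Cited4, Commd3, Nkx2-9, Zfp750, Naa80 and 1700007K13Rik. Both ratios share the 2 h library, so a 2 h value that is low for any reason lifts both. The value at 0 h is therefore given beside each called gene. In each of the 12 it lay above the 2 h value, and in Rcor2 below it. In the wider sets it lay above the 2 h value in 52 of the 54 and below it in all 20. Nothing is read from that, since the 0 h to 2 h ratio shares the 2 h library too. Of the 12, 3 had a 0 h value within 1.5-fold of the 2 h value. With the mean of the 0 and 2 h log2 values as the base, 4 genes were higher and 0 lower: Hmox1, Nkx2-9, Zfp750 and the histone gene H4c3, the last not among the 12. Of the 5 antioxidant genes, only Hmox1 kept its call on that base. The smaller log2 ratio was then 0.894 for Srxn1, 0.444 for Nqo1, 0.595 for Gclm and 0.480 for Fth1.

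**Figure D1:**
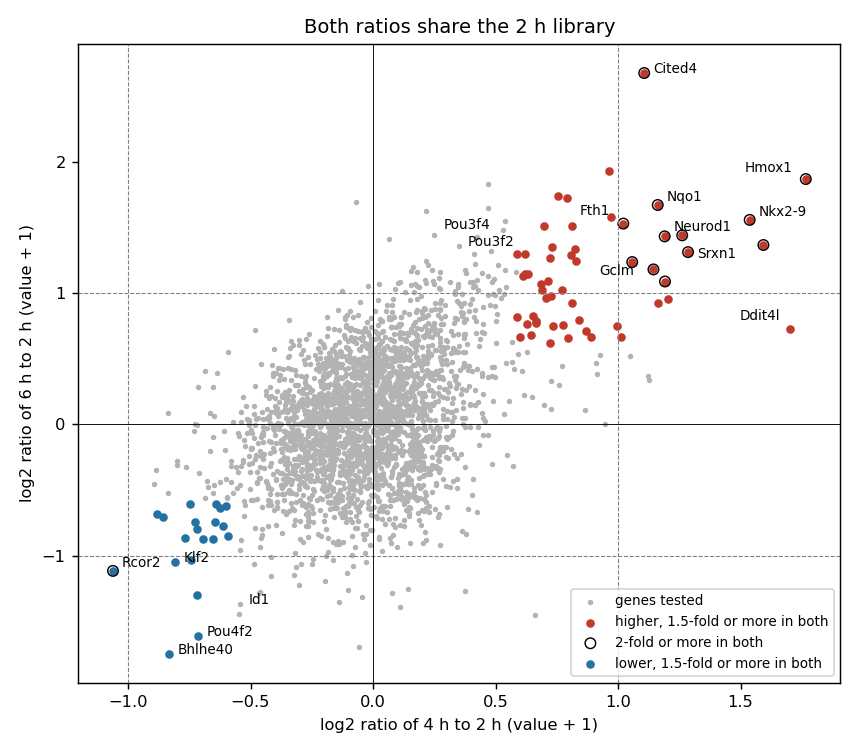
Each point is 1 of 2762 genes, with its log2 ratio of 4 h to 2 h on the x axis and of 6 h to 2 h on the y axis. Red and blue points pass 1.5-fold in both ratios (54 higher and 20 lower), circled ones pass 2-fold in both (12 and 1), and dashed lines mark 2-fold; Hmox1 lies far up on both axes.

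Hmox1, heme oxygenase 1, which breaks heme down to iron, biliverdin and carbon monoxide, stood out most by the smaller of its ratios. Its values were 58.01, 40.2, 139, 149.7, 18.9, 11.7 and 12.5 at 0, 2, 4, 6, 14, 24 and 48 h. The 4 and 6 h libraries were the highest of the 7, and those from 14 h on were below both 0 h and 2 h. The value at 4 h was 3.46-fold (95% interval 3.30 to 3.64) that at 2 h and the value at 6 h 3.72-fold (95% interval 3.56 to 3.90), where the interval is an exact binomial one on recovered reads and covers counting error only. About 2138, 6848 and 14290 reads lay behind the 3 values. Fth1, the ferritin heavy chain, which stores iron in oxidized form, was at 245 at 0 h, followed by 115, 235 and 335 at 2, 4 and 6 h. Its 6 h value was the highest of its 7, and its smaller ratio (1.02, at 4 h) sat just inside the threshold.

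Srxn1, the sulfiredoxin that restores overoxidized peroxiredoxins, was 24.2 at 0 h, followed by 13.7, 34.7 and 35.4 at 2, 4 and 6 h. Both later values were above all other libraries of the course, and they were 2.54-fold (95% interval 2.31 to 2.80) and 2.59-fold (95% interval 2.38 to 2.84) the 2 h value. Gclm, the modifier subunit of glutamate-cysteine ligase, the enzyme that limits glutathione synthesis, went through 17.9, 7.82, 18.5, 18.999, 7.18, 6.52 and 4.71 over the 7 libraries. Here the 4 and 6 h values stood close to the 0 h value, and 2 h was the low library among the first 4. Nqo1, a quinone reductase, was 13.9 at 0 h, followed by 4.51, 11.3 and 16.6 at 2, 4 and 6 h. Its 4 h value was below the 0 h value and its 6 h value above it.

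The promoters of 2 of these genes, Srxn1 and Gclm, hold letters like those of an antioxidant response element or the related AP-1 site. Among antioxidant genes of the wider higher set with an entry, these 2 promoters are shown because they hold such a match. They are the 250 bases before the RefSeq start in GRCm38.p6, on the plus strand, at chr2:152105274-152105523 and chr3:122245307-122245556. Capitals mark TGANTCA in Srxn1 (102 and 45 bases before the start) and TGACNNNGC, here on the other strand, in Gclm (134 bases before it).
Srxn1: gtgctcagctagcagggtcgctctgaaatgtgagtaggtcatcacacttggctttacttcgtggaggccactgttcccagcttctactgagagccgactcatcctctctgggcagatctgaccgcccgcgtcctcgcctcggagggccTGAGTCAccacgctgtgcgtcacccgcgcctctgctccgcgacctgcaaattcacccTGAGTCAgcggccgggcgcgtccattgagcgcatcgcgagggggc
Gclm: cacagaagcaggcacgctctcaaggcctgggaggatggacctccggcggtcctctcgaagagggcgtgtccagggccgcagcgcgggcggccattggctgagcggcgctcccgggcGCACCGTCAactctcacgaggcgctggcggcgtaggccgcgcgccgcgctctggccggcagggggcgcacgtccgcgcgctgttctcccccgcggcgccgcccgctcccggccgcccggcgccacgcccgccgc

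Over the window from 250 bases before to 50 after the start, TGACNNNGC was found on either strand in 3 of the 10 genes called higher that have an entry (30%), and in 336 of 2272 tested genes with one (14.8%). TGANTCA was in 1 of the 10 and in 100 of the 2272 (4.4%). A TGANTCA match can be part of a TGACNNNGC match. Hmox1 has no entry. Nqo1, Fth1 and Gpx2 have neither in the 250 bases before the start. The octamer ATGCAAAT, which POU-domain factors such as Brn2 bind, was in 0 of 46 genes of the wider higher set, 0 of 14 of the wider lower set and 29 of 2272 in all (1.28%). A match is a description of these letters and not evidence of binding.

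**Figure D2:**
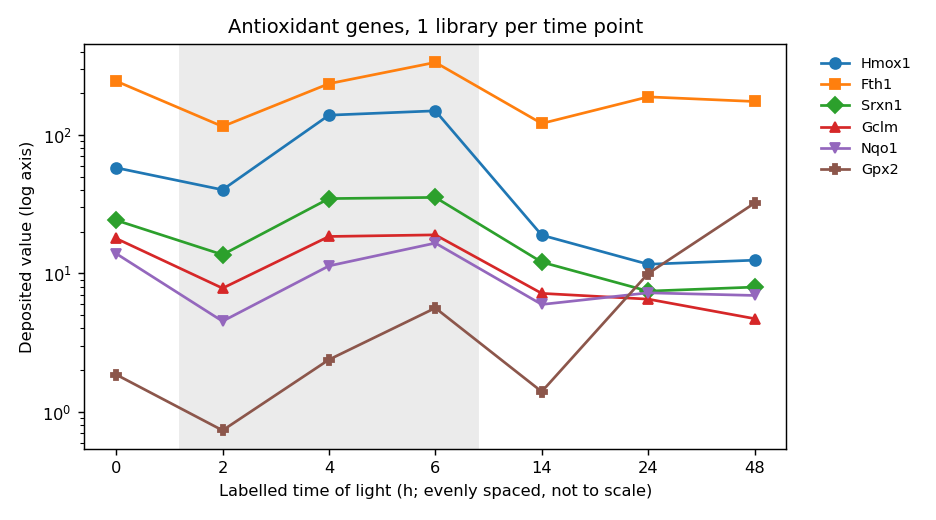
Deposited value (log axis) of 6 antioxidant genes in the 7 libraries, in order of labelled time with even spacing; the grey band covers the 3 libraries compared. Each line dips at 2 h and is higher at 4 and 6 h, and Gpx2 is the one that is far higher at 48 h.

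Of the 23 antioxidant genes, 18 passed the floor, and most of these were on the higher side. Of the 18, 14 lay above 2 h at both times, 0 lay below at both and 4 were on opposite sides, beside 29.7% and 29.8% of all genes above and below. Nqo1, Gclc and Gpx2 were under the floor at 2 h and passed it only at later times, so they could not have been counted lower. With a floor of 20, 7 members were on the higher side and 0 on the lower, beside 273 and 231 of all genes. With the mean of 0 and 2 h as the base, 12 of the 18 were on the higher side and 1 on the lower, and over all 2762 genes 973 and 651 were. The list's median log2 ratio was 0.32 at 4 h and 0.71 at 6 h, against -0.03 and 0.06 over all genes tested. The list was drawn up with earlier results of these data known. Gpx2, a glutathione peroxidase, was under the 2-fold threshold at 4 h and rests on few reads at 2 h: 0.734, 2.38 and 5.63 at 2, 4 and 6 h, from about 18, 54 and 248 reads. Ftl1, the ferritin light chain, was at 1326, 1605 and 2965 at 2, 4 and 6 h, so most of its difference lay at 6 h. Gclc, the catalytic partner of Gclm, was highest of the 3 libraries at 4 h (3.96, 6.77 and 4.75 at 2, 4 and 6 h).

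Of the regulators, Nfe2l2, which encodes Nrf2, was nearly level at 8.46, 8.54 and 8.07 at 2, 4 and 6 h. Keap1 was under the floor at 0.861, 1.02 and 1.39. Among the pentose phosphate genes on the list, G6pdx, which encodes the first enzyme of the pathway and overlaps Ikbkg, stood at 5.04, 6.402 and 9.70 at 2, 4 and 6 h. Taldo1 was at 19.4, 18.6 and 22.4 at 2, 4 and 6 h, and Tkt at 18.6, 17.1 and 21.9 at 2, 4 and 6 h, both on opposite sides of 2 h. Prdx1, a peroxiredoxin, was highest of the 3 libraries at 4 h (80.2, 109.8 and 75.6 at 2, 4 and 6 h). Other enzymes and transporters of redox and heme metabolism, named after their values were seen, were in the wider higher set. Slc48a1, a heme transporter, was at 3.25, 6.51 and 9.70 at 2, 4 and 6 h, though the gene overlaps Hdac7. Dcxr, a carbonyl reductase, was at 5.30, 9.90 and 19.9 at 2, 4 and 6 h. Cbr3, a second carbonyl reductase, was at 4.36, 7.42 and 8.50 at 2, 4 and 6 h. Gsto1, a glutathione transferase of the omega class, was at 2.40, 4.48 and 5.91 at 2, 4 and 6 h.

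The remaining genes called higher had lower values or a different course. The proneural factor gene Neurod1 was 3.65 at 0 h, followed by 1.77, 5.33 and 6.49 at 2, 4 and 6 h, on about 57, 159 and 376 reads. Its later values were 22.4, 60.7 and 43.6 at 14, 24 and 48 h, and it was the one gene of the 12 with a higher value at 14 h than at 0 h. Cited4, a coactivator that binds p300 and CBP, stood at 2.51, 6.55 and 21.4 at 2, 4 and 6 h, between 33.7 at 0 h and 22.1 at 14 h. Only about 24 reads were counted for it at 2 h, and its 2 h library was the lowest of all 7. Commd3, a member of the COMMD family that works in endosomal sorting, was 28.3 at 0 h, followed by 8.64, 19.06 and 21.7 at 2, 4 and 6 h. Both 4 and 6 h stood between its 2 h and 0 h values.

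Another 4 genes of the 12 had no value of 10 or more in the 3 libraries, or are predicted genes, and are named after their values were seen. Nkx2-9, a homeobox gene, was 3.42 at 0 h, followed by 1.60, 6.55 and 6.66 at 2, 4 and 6 h, with about 23, 88 and 173 reads. Zfp750, a zinc finger gene that overlaps Tbcd, was 3.14 at 0 h, followed by 1.93, 7.84 and 6.56 at 2, 4 and 6 h. Naa80, an actin acetyltransferase whose gene overlaps Hyal1 and Hyal3, was 4.37 at 0 h, followed by 3.01, 8.17 and 7.54 at 2, 4 and 6 h. The predicted gene 1700007K13Rik, which overlaps Mrps2, was 9.23 at 0 h, followed by 5.10, 13.6 and 15.6 at 2, 4 and 6 h. All 4 stood at 14 h below their 0 h values. Where genes overlap, the share of reads that belongs to each is not known.

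Just outside the threshold on the higher side, among genes with a value of at least 20, were Zfp488 (38.00, 76.8 and 64.6 at 2, 4 and 6 h), Chchd5 (10.4, 17.9 and 21.5 at 2, 4 and 6 h) and Ddit4l (10.6, 36.9 and 18.2 at 2, 4 and 6 h). Zfp488 is a transcriptional repressor known from oligodendrocytes; it was at 158 at 0 h, far above either later value. Chchd5 is a protein of the mitochondrial intermembrane space. Ddit4l, a relative of the mTOR inhibitor Ddit4, stood apart at 4 h, with a log2 ratio of 1.70 there and 0.72 at 6 h.

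Targets of p53, the damage-responsive tumour suppressor, were more often above 2 h than below it, and several of them were highest of the 3 libraries at 4 h. Of 31 listed genes, 21 passed the floor, of which 14 lay above 2 h at both times, 3 below and 4 on opposite sides, beside 29.7% of all genes above and 29.8% below. The median log2 ratio was 0.50 at 4 h and 0.35 at 6 h. None passed 2-fold in both ratios, and 2 passed 1.5-fold, as did 1.96% of all genes. They were Btg2, an antiproliferative gene (20.1, 35.7 and 32.4 at 2, 4 and 6 h), and Ddit4, which restrains mTOR (26.2, 48.7 and 43.6 at 2, 4 and 6 h). Zmat3, an RNA-binding p53 target, was at 10.8, 16.8 and 16.1 at 2, 4 and 6 h, and Plk2, a polo-like kinase, at 17.05, 36.3 and 24.9 at 2, 4 and 6 h. The ubiquitin ligase gene Mdm2, the feedback inhibitor of p53, had values of 16.2, 10.99 and 22.1 at 0, 2 and 4 h, with a log2 ratio of 0.95, and back at its 2 h level at 6 h (log2 ratio 0.00). Ccng1, another feedback gene, was 142 at 0 h, its highest library, followed by 59.6, 131 and 75.6 at 2, 4 and 6 h. Trp53inp1 was 22.01 at 0 h, followed by 13.6, 25.6 and 14.8 at 2, 4 and 6 h. Trp53 itself was at 30.3, 27.2 and 28.3 at 2, 4 and 6 h.

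Genes of the Atf4 response to amino acid and translation stress were mixed. Of 22 tested members, 11 lay on the higher side, 3 on the lower and 8 on opposite sides, with medians of 0.05 at 4 h and 0.30 at 6 h. Among all genes tested 29.7% lay on the higher side and 29.8% on the lower. Against the mean of 0 and 2 h, 9 of the 22 were on the higher side and 8 on the lower. The stress factor Ddit3 (CHOP) was at 6.57, 11.9 and 14.4 at 2, 4 and 6 h, and it overlaps Mars1 and Mbd6. Nupr1, a stress-induced nuclear protein, was at 7.08, 11.1 and 17.1 at 2, 4 and 6 h, just under 1.5-fold at 4 h. Chac1, which degrades glutathione, was on the other side at 8.81, 5.25 and 6.11 at 2, 4 and 6 h. Atf4 itself was 236 at 0 h, followed by 133, 127 and 173 at 2, 4 and 6 h.

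Brn2 and its measured relatives lay above their 2 h values at both times without being called, but 2 h was the lowest of the first 4 libraries for each. Pou3f2 was 77.03 at 0 h, followed by 36.9, 47.3 and 96.2 at 2, 4 and 6 h, with log2 ratios of 0.35 and 1.36, so that most of the difference was in the 6 h library. Pou3f4 was 36.7 at 0 h, followed by 28.8, 34.4 and 80.2 at 2, 4 and 6 h. Pou3f1 was 270.5 at 0 h, above all 3 later values of 117, 152 and 189 at 2, 4 and 6 h. With the mean of 0 and 2 h as the base, Pou3f2 and Pou3f1 were no longer on the higher side at both times, and the smaller ratio of Pou3f4 was 0.08. Pou3f3 was under the floor in all 3 libraries. Whether cassette reads count towards Pou3f2 is not stated.

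**Figure D3:**
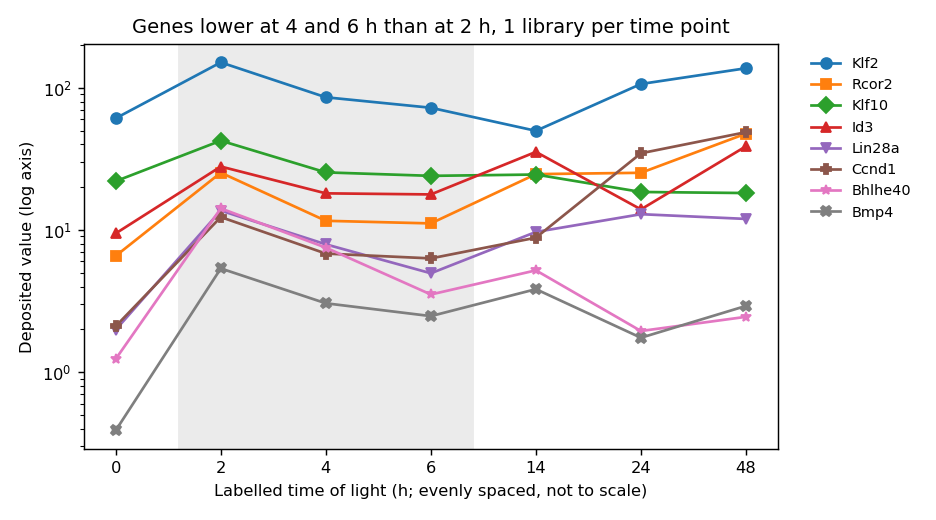
Deposited value (log axis) of 8 genes on the lower side in the 7 libraries, evenly spaced in order of labelled time; the grey band covers the 3 libraries compared. Each gene is higher at 2 h than at 0, 4 and 6 h, and the highest library of Ccnd1, Rcor2 and Id3 is 48 h.

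On the lower side, Rcor2, a scaffold of the CoREST repressor complex in stem cells and neural progenitors, was the single gene called lower. It was 6.57 at 0 h, then 25.3, 11.6 and 11.1 at 2, 4 and 6 h, and 24.7, 25.2 and 47.6 at 14, 24 and 48 h. The value was 0.459-fold (95% interval 0.415 to 0.507) the 2 h value at 4 h and 0.440-fold (95% interval 0.405 to 0.477) at 6 h, while from 14 h on it was back near or above the 2 h level. Just outside the threshold were Klf2, Scd2 and Klf10. Klf2, a Krüppel-like factor of naive pluripotency, was 61.02 at 0 h, followed by 151, 85.7 and 72.4 at 2, 4 and 6 h. Klf10, an early gene of TGF-beta signalling, was 22.02 followed by 42.5, 25.4 and 24.02 at 2, 4 and 6 h. In both genes 2 h was the highest library of the 7.

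Few genes of BMP signalling and its targets passed the floor, and their side depended on the base. Of 21 listed genes 6 passed the floor. Of the 6, 4 lay on the lower side (29.8% in all genes tested), 0 on the higher (29.7%) and 2 on opposite sides. With the mean of 0 and 2 h as the base this turned to 4 on the higher side and 0 on the lower. The list's median log2 ratio was -0.43 at 4 h and -0.75 at 6 h. The ligand gene Bmp4 was 0.389 at 0 h, followed by 5.36, 3.05 and 2.48 at 2, 4 and 6 h. The Id genes encode inhibitors of basic helix-loop-helix factors and are direct BMP targets. Id1, Id2 and Id3 were on the lower side as well, in the same libraries as Bmp4, so no order between them is shown. Id1 was 0.828 at 0 h, followed by 11.2, 7.37 and 3.73 at 2, 4 and 6 h, on about 99, 60 and 59 reads. Id3 was 9.46 followed by 27.9, 18.1 and 17.8 at 2, 4 and 6 h. Id2 was 1.17 followed by 7.27, 5.64 and 3.19 at 2, 4 and 6 h, with a counting interval at 4 h of 0.585 to 1.02 that includes no difference. In the list of FGF and ERK feedback genes, 5 of 9 tested members were on the lower side and 3 on the higher, beside the same shares of all genes. The ligand Fgf4 was at 105, 73.9 and 69.8 at 2, 4 and 6 h and the feedback inhibitor Spry1 at 5.51, 3.18 and 3.27 at 2, 4 and 6 h, whereas Phlda1 was at 3.89, 8.29 and 6.06 at 2, 4 and 6 h.

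Among core and naive pluripotency genes, 14 of 27 tested members lay on the lower side, 5 on the higher and 8 on opposite sides. In all genes tested 29.8% lay on the lower side and 29.7% on the higher. The list's median was -0.34 at 4 h and -0.11 at 6 h. Against the mean of 0 and 2 h, 10 of the 27 were on the lower side and 8 on the higher. Over all 2762 genes that base gave 651 lower and 973 higher. Besides Klf2, the RNA-binding protein gene Lin28a passed 1.5-fold, at 1.99 at 0 h, followed by 13.7, 7.92 and 4.96 at 2, 4 and 6 h. Nanog, which helps to hold the naive state, was 81.4 at 0 h, followed by 81.6, 51.6 and 56.4 at 2, 4 and 6 h, so its 0 and 2 h libraries were the high ones of the 4. Pim1, a kinase gene downstream of Stat3, was at 17.8, 9.49 and 12.1 at 2, 4 and 6 h. The defining factors of the cell line were present throughout: Pou5f1 was at 219.6, 233 and 204 at 2, 4 and 6 h, and Sox2 at 71.8, 66.8 and 77.5 at 2, 4 and 6 h. Both are on a list of 10 ES cell markers, of which 9 passed the floor. Among these 9, 5 lay on the lower side, 0 on the higher and 4 on opposite sides. Their median log2 ratios were -0.36 at 4 h and -0.27 at 6 h. Among markers of other cell types, 0 of 20 fibroblast and feeder genes and 0 of 15 mesoderm genes passed the floor. Of 19 primitive endoderm genes Apoe and Sparc passed, while the defining factors Gata4, Gata6 and Sox17 were at 0.311 or less in the 3 libraries. Of 14 trophoblast genes Tfap2c passed, and Elf5 was at 0.0106 or less. The floor acts on reads per kilobase of genomic span, so a marker under it is not shown to be absent. Esrrb, on the pluripotency list, was under it too, at 4.41, 2.83 and 2.51 at 2, 4 and 6 h.

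Several other regulators in the wider lower set were named after their values were seen. Bhlhe40, a repressor that also acts in the circadian clock, was 1.24 at 0 h, followed by 14.2, 7.51 and 3.52 at 2, 4 and 6 h. The POU-domain factor gene Pou4f2 was 0.369 followed by 6.34, 3.47 and 1.404 at 2, 4 and 6 h, on about 176, 89 and 70 reads. Ccnd1, cyclin D1, whose gene overlaps LTO1, was 2.10 followed by 12.3, 6.82 and 6.31 at 2, 4 and 6 h. Epop, a partner of Polycomb repressive complexes, was 55.8 followed by 164, 107 and 95.1 at 2, 4 and 6 h. All 4 were lowest at 0 h among the first 4 libraries.

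Lipid synthesis genes lay mostly below 2 h at both times. Of 17 tested cholesterol and fatty acid genes, 14 lay on the lower side and 0 on the higher, with medians of -0.32 at 4 h and -0.40 at 6 h. Among all genes tested 29.8% lay on the lower side and 29.7% on the higher. On the base of 0 and 2 h together, 11 of the 17 were lower and 0 higher. Over all 2762 genes that base gave 651 lower and 973 higher. The desaturase Scd2 was at 102, 61.01 and 60.2 at 2, 4 and 6 h, from about 10237, 5680 and 10871 reads. The fatty acid synthase gene Fasn was at 29.4, 15.5 and 17.97 at 2, 4 and 6 h. Insig1, which retains the SREBP activator complex in the endoplasmic reticulum, was at 30.4, 18.5 and 20.3 at 2, 4 and 6 h, and Sqle, squalene epoxidase, at 16.9, 11.1 and 11.5 at 2, 4 and 6 h. At 14 h these 4 genes were above all of the first 4 libraries, with Scd2 at 218 and Fasn at 43.6.

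Of 37 tested genes of ribosome assembly in the nucleolus, 27 lay on the lower side and 1 on the higher, with medians of -0.27 and -0.28. For this list and the next 2, the shares over all genes tested were 29.8% lower and 29.7% higher. On the base of 0 and 2 h together, 17 of the 37 were on the lower side and 8 on the higher. The RNA helicase Ddx21 was at 22.1, 15.7 and 11.1 at 2, 4 and 6 h, and the nucleolar GTPase Gnl3, whose gene overlaps Glt8d1, at 37.9, 27.4 and 20.4 at 2, 4 and 6 h. Of 83 ribosomal protein genes, 41 were on the higher side and 6 on the lower, but the lean depended on the scaling: 19 and 17 were with quantile normalization and 24 and 12 with the transcript length trend removed. As deposited, their values gave medians of 0.10 and 0.09 (0.15 and 0.01 with the GC trend described below removed). Rps26 was at 629, 857 and 810.4 at 2, 4 and 6 h. Of 26 heat shock and chaperone genes, 15 were on the lower side and 2 on the higher, with medians of -0.09 and -0.33. With the GC trend removed, 17 were lower and 3 higher, and the medians were -0.082 and -0.175. The cochaperone gene Fkbp4 was at 79.8, 59.1 and 57.3 at 2, 4 and 6 h. None of these 3 lists had a member past 1.5-fold in both ratios.

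**Figure D4:**
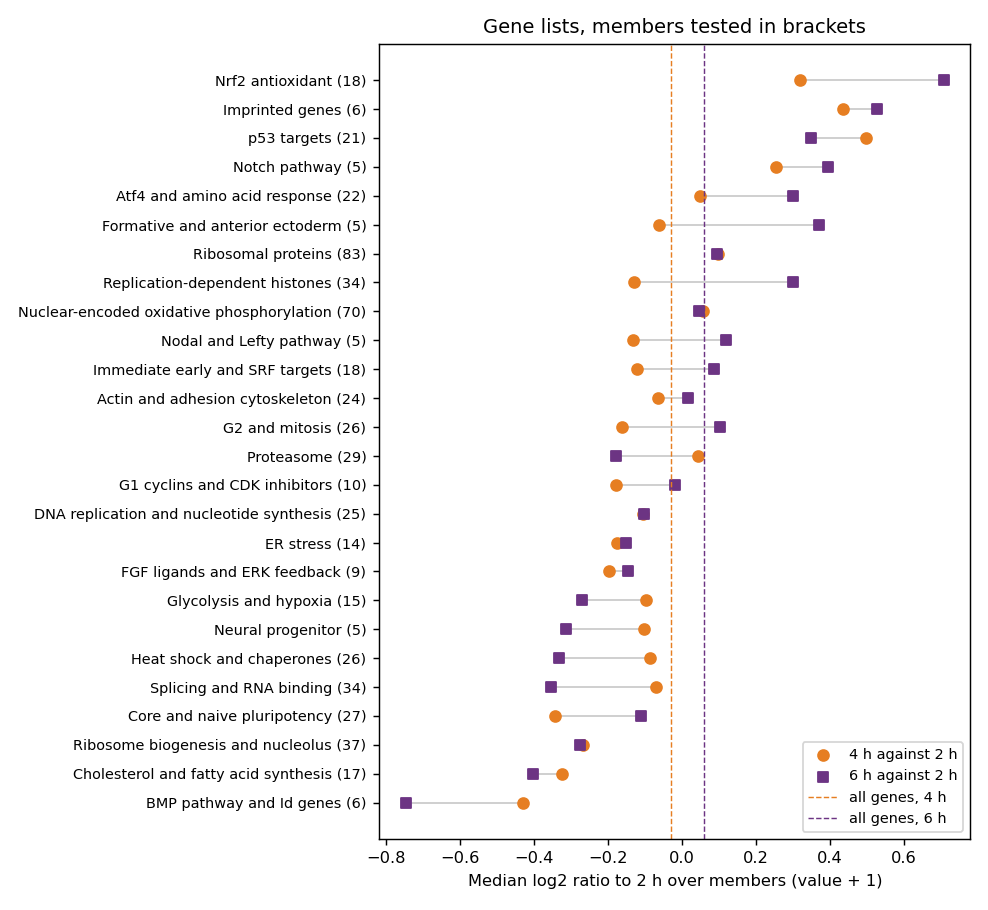
Median log2 ratio to 2 h over the tested members of each gene list with at least 5 of them (numbers in brackets), at 4 h (circles) and 6 h (squares); dashed lines are the medians over all 2762 genes. Antioxidant genes stand at 0.32 and 0.71 and BMP and Id genes at -0.43 and -0.75.

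The 0 h and 14 h libraries, whose values did not enter the ratios that define the sets, were compared with each other in these sets. Of the 54 genes in the wider higher set, 48 (88.9%) were lower at 14 h than at 0 h, against 43.3% of all genes tested. Their median log2 ratio of 14 h to 0 h was -0.89, against 0.08 over all genes. Of the 20 genes in the wider lower set, 15 (75%) were higher at 14 h than at 0 h, against 56.7% of all genes, with a median of 1.05. Hmox1 (58.01 at 0 h and 18.9 at 14 h) and Ddit3 (14.6 and 1.80) are examples of the first set, and Ccnd1 (2.10 and 8.82) and Scd2 (56.1 and 218) of the second. The higher set had a median span of 4.59 kb and the lower set 8.08 kb, beside 7.77 kb over all genes, and their median transcript GC contents were 53.01%, 52.3% and 52.2%. The lean from 0 h to 14 h was not particular to the wider sets. Of the 415 genes above 2 h at 4 h and below it at 6 h, 79.04% were lower at 14 h than at 0 h. Of the 704 with the reverse order, 81.82% were higher at 14 h. These opposite-side sets differed in median transcript GC content, at 45.08% for the 415 and 55.97% for the 704. Whether their lean follows GC content was not tested. In the full same-side sets the lean was weaker: 52.62% of the 821 were lower at 14 h and 62.65% of the 822 higher.

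The 6 h library differed from the 2 h library with GC content, and the 4 h library did so to a lesser degree in the other direction. In the tenth of genes with the lowest GC content the median log2 ratio was -0.38 at 6 h and 0.13 at 4 h, and in the tenth with the highest it was 0.40 and -0.11. Pearson's r between GC content and the ratio across genes was 0.49 at 6 h and -0.21 at 4 h, where genes are not independent replicates. At 6 h alone 92 genes (3.33%) were 2-fold higher and 34 (1.23%) were 2-fold lower, and at 4 h alone 19 (0.688%) and 1 (0.0362%). With the GC trend removed from each ratio, 15 of 2751 genes (0.545%) were called higher in both, and 11 of the 12 were among them.

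**Figure D5:**
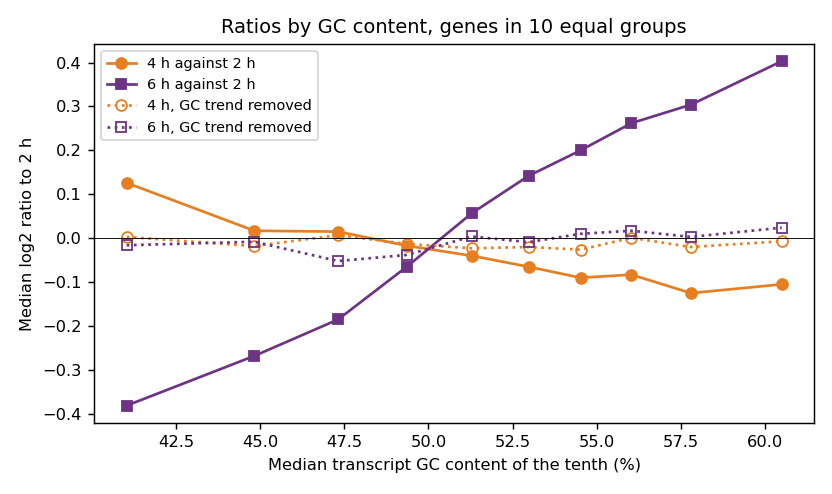
Median log2 ratio to 2 h (y axis) against median transcript GC content in percent (x axis) for genes in 10 equal groups, at 4 h (orange) and 6 h (purple), as measured (solid) and with the GC trend removed (dotted). The 6 h medians run from -0.38 to 0.40 with GC content, the 4 h medians from 0.13 to -0.11.

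The 5 antioxidant genes were called higher with the GC trend removed too. Hmox1 then had log2 ratios of 1.81 and 1.72, Srxn1 1.33 and 1.16, Nqo1 1.15 and 1.85, Gclm 1.07 and 1.53, and Fth1 1.07 and 1.37. Gpx2 came in with 1.01 and 1.77. On the list, 16 of 18 members then lay on the higher side and 0 on the lower, while over all genes 967 and 1019 did, up from 821 and 822. Naa80 dropped out at 6 h (0.84), and Kbtbd6, Slc4a11 and Tmem19 came in. Rcor2 was no longer past 2-fold at 4 h (-0.95, with -1.52 at 6 h), so 0 genes were called lower. At 1.5-fold with the trend removed, 62 genes (2.25%) were higher and 21 (0.763%) lower, of which 49 and 15 belonged to the sets of 54 and 20.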

How the data were processed

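Per the labels' protocols, the study used RNeasy extraction and Lexogen SENSE libraries; the submitters' processing notes name Bowtie2 and mm9. How the authors counted reads, and with what strand setting, is not stated. Their deposited values carry no named unit. Multiplied by genomic span and a library factor, whole reads (tolerance 0.1) resulted for 79.6% to 81.2% of values in the range of 2 to 20 reads, so they were taken as reads per kilobase of span. The factors imply 7629000, 7058000 and 13700000 reads at 2, 4 and 6 h. Spans come from GRCm38, so read numbers are approximate, and intervals (95%, exact binomial) cover counting error only.

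Of 30673 rows, 3320 start site rows and 695 further placements were left out. The other rows were matched to symbols by accession (26245 of them), and the row of highest mean over the 7 libraries was kept per gene. Ratios used a pseudocount of 1. The GC trend was fitted as a natural spline (5 degrees of freedom) over genes with a mean of at least 5; GC content was known for 2751 genes (99.6%). Python 3.11.15, pandas 2.3.3, scipy 1.17.1 and patsy 1.0.2 were used. As a check of the code, the calls were run on simulated reads with counting error only. That simulation held no variation between libraries and no true changes as small as 2-fold, so it does not measure the reliability of the calls. Members, gene lists and motifs were chosen with earlier results of these data known. Named genes were the class III POU genes, at most 15 called genes in each direction reaching a value of 10, 4 members per described list, and 3 genes on each side of the threshold with a value of at least 20. Further list members, among them Mdm2, Ccng1, Trp53inp1, Arc and Nr4a1, were named outside these rules with their values known. Promoters came from RefSeq (GRCm38.p6; 2272 of 2762 genes matched, the first entry by coordinate).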

Additional observations from a re-analysis of the deposited data

How the results depend on the processing

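The count of genes called higher (12) and lower (1) depended on the threshold, the pseudocount, the floor and the base. It was 20 and 1 with pseudocount 0.1, 2 and 0 with pseudocount 5 (Hmox1 and Srxn1), 20 and 2 with a floor of 1, and 5 and 1 with a floor of 20. It was 54 and 20 at 1.5-fold and 1 (Hmox1) and 0 at 3-fold. At 4 h alone it was 19 and 1, at 6 h alone 92 and 34, and with the mean of 0 and 2 h as the base 4 and 0. With the GC trend removed it was 15 and 0, and at 1.5-fold with that trend removed, an alternative chosen after seeing the data, 62 and 21. Median centring gave 13 and 1, quantile normalization 11 and 1, removal of a length trend 12 and 1, and the mean of a gene's rows 12 and 1. Chosen after seeing the data, a minimum of 100 reads gave 12 and 1 and leaving out overlapping genes 9 and 1. Zfp488 changed sign, to -0.02, with 0 and 2 h as the base, and under that base the BMP and Id list turned from 0 higher and 4 lower members to 4 and 0. The lower depth of the 2 and 4 h libraries limits genes such as Nkx2-9 and Cited4, with about 23 and 24 reads at 2 h, and with 1 library per time point variation between cultures was not measured. No paired analysis was possible because each time point has 1 library.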

Other observations

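Genes listed as imprinted, which in at least some tissues are expressed mainly from 1 parental copy, lay mostly on the higher side. Expression from each copy was not measured here. Of 6 tested members 5 were above 2 h at both times and 1 was on opposite sides, beside 29.7% of all genes above, with median log2 ratios of 0.44 at 4 h and 0.53 at 6 h. Mest, whose gene overlaps Copg2, was at 6.01, 10.3 and 13.7 at 2, 4 and 6 h, Ndn at 2.31, 3.79 and 5.58 at 2, 4 and 6 h, and the tetraspanin gene Cd81 at 19.97, 28.7 and 31.2 at 2, 4 and 6 h. Their 0 h values were 12.5, 6.19 and 22.4, all above 2 h.

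Of the interferon response list, 4 genes were tested and all 4 lay above 2 h at both times, with most of the difference at 6 h. Over all genes tested the share above at both times was 29.7%. Ifitm3, a membrane protein gene that restricts viral entry, was at 79.1, 99.9 and 158 at 2, 4 and 6 h. Ifitm2 was at 174, 202 and 294 at 2, 4 and 6 h, and the class I antigen gene H2-K1 at 3.58, 4.30 and 7.10 at 2, 4 and 6 h.

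Early response genes of the serum response factor and related signals were divided: 8 of 18 tested members lay on the higher side and 8 on the lower. Over all genes tested 29.7% lay on the higher side and 29.8% on the lower. Ccn1, a matrix-bound signalling protein gene, was at 4.75, 8.10 and 8.82 at 2, 4 and 6 h, and Arc, known from neuronal activity, at 5.34, 7.45 and 10.2 at 2, 4 and 6 h. Nr4a1, a nuclear receptor gene, was on the lower side at 9.30, 6.32 and 5.89 at 2, 4 and 6 h.

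Replication-dependent histone genes were mixed as well, with 13 of 34 on the higher side, 7 on the lower and 14 on opposite sides. The shares over all genes tested were 29.7% higher and 29.8% lower. With the GC trend removed, 10 of the 34 were on the higher side and 12 on the lower, beside 967 and 1019 of all genes. The list's median log2 ratio at 6 h was 0.30 as deposited and -0.03 with the trend removed. H4c3 was at 3.38, 6.85 and 6.58 at 2, 4 and 6 h, after 1.08 at 0 h, and H1f1 was at 9.50, 6.28 and 5.48 at 2, 4 and 6 h. Histone genes share near-identical sequences, and most of their messages lack a poly(A) tail, so how reads were assigned and selected bears on these values and was not tested.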
